A study of Rattus norvegicus with 12 samples.

Results

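The antioxidant, glutathione and metallothionein genes of rat mixed glial cultures were taken as every probe set with a single gene symbol that begins with Gst, Gpx, Prdx, Txn or Mt (metallothionein forms only), together with Sod1, Sod2, Sod3, Cat, Gclc, Gclm, Gss, Gsr, Hmox2, Nqo1 and Nqo2. The rule found 75 probe sets for 40 genes among 8740 probe sets, and 26 of these genes had several probe sets. Mt3 was the only metallothionein, since 2 other metallothionein probe sets carry several gene symbols, and Nqo2 was not among the genes found. RNA came from neonatal rat brain cultures of astrocytes, oligodendrocytes, their precursors and microglia. Each of 3 experiments had 4 cultures, 1 for each of the M/M, Th1 and Th2 cytokine mixtures and 1 control culture with medium only, and each culture was hybridised to 1 Affymetrix RG-U34A array, which gives 12 arrays. All mixtures were given for 6 hours with every cytokine at 10 ng/ml. By the sample labels, M/M (monocyte/macrophage) cultures received IL-1α, IL-1β, IL-12p40 and TNF-α, Th1 cultures received IL-2, interferon-γ, TNF-α and G-CSF, and Th2 cultures received porcine TGF-β1 and G-CSF with IL-5 and IL-10, whereas the methods add IL-6 to the M/M and IL-4 to the Th2 mixture. These are whole cultures of several cell types, so fewer cells of a type and less RNA per cell cannot be told apart.

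Superoxide dismutases convert superoxide into hydrogen peroxide, which catalase, the glutathione peroxidases and the peroxiredoxins then remove. The peroxidases draw their electrons from glutathione, a tripeptide made by glutamate-cysteine ligase and glutathione synthetase, or from thioredoxin, and reductases that use NADPH return both to the reduced form. Glutathione S-transferases join glutathione to reactive compounds, and metallothioneins bind zinc and copper. In brain, astrocytes are known as the main store of glutathione.

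The deposited signals of the arrays were not level. Median signals were 42.2 to 60.9 in M/M, 24.5 to 61 in Th1 and 29.1 to 58.4 in Th2 arrays, against 26.9 to 59.1 in control arrays, and the whole array was shifted against control, with a median over all probe sets of 0.33 on the log2 scale in M/M cultures, 0.14 in Th1 cultures and 0.19 in Th2 cultures. Results are therefore also given with each array centred on its median, which is called relative to the shift of the arrays. Centring takes away the difference of array medians and not exactly the values above. After it the median over all probe sets was -0.10 with M/M, -0.02 with Th1 and -0.03 with Th2, so a value of 0 lies above the middle probe set. The labels of experiment 3 were in doubt. Genes induced by interferon-γ (9 of 10 measured, such as Irf1, Cxcl10 and Gbp2) had mean log2 ratios to control of 4.07 and 4.44 in the Th1 cultures of experiments 1 and 2, but of -0.85 in the array labelled Th1 of experiment 3. In the arrays labelled M/M the same genes stood at 2.27, 1.99 and 4.59 in experiments 1, 2 and 3, and in those labelled Th2 at -0.39, 0.30 and 1.60. No array was moved to another group, and the main results are given with and without experiment 3. Of the cell type markers, 6 of 7 measured for astrocytes, 6 of 6 for oligodendrocytes, 2 of 2 for their precursors and 6 of 8 for microglia were brighter than the median probe set, against 4 of 5 for fibroblasts, 2 of 8 for neurons and 0 of 4 for endothelium. None of these marker genes passed the test with any mixture.

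Sod2 rose with M/M cytokines. It encodes the manganese superoxide dismutase of mitochondria, and no other member passed the test in any comparison with all 12 arrays. Its signals were 2053, 1122 and 595 in the M/M cultures of experiments 1, 2 and 3, 1346, 933 and 137 in the Th1 cultures and 713, 465 and 461 in the Th2 cultures, against 326, 229 and 98.8 in controls. All 3 M/M cultures and all 3 Th2 cultures lay above every control, whereas the culture labelled Th1 of experiment 3 lay inside the range of the controls. Within experiments the M/M culture exceeded its control 6.30, 4.91 and 6.02-fold. The log2 fold change with M/M was 2.51 ± 0.40 (SE, n = 3 per group), with an adjusted p of 0.0251 by limma. Sod2 was thus 1 of 75 member probe sets called (1.33%), where 23 of all 8740 probe sets (0.263%) were called higher and none lower with M/M. Relative to the shift of the arrays the log2 fold change was 2.09 and its adjusted p 0.139, and 0% of probe sets were then called in either direction. Without experiment 3 it was 2.48 with an adjusted p of 0.00284, where 0.389% of all probe sets were called higher. Leaving out either the M/M or the control array ended the call in experiments 2 and 3, and in experiment 1 the M/M array did so, with values on the log2 scale from 2.43 to 2.64 and adjusted p from 0.102 to 0.308 in these 5 fits. Leaving out all of experiment 2 gave 2.62 with an adjusted p of 0.171.

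The Th1 cultures exceeded their controls in Sod2 signal 4.13, 4.08 and 1.39-fold in experiments 1, 2 and 3. The log2 fold change was 1.52 ± 0.40 with an adjusted p of 0.641 in limma, where 0% of all probe sets were called in either direction. Without experiment 3 it was 2.04 with an adjusted p of 0.00677, and 0.641% of probe sets were then called higher. Without only the array labelled Th1 of experiment 3 it was 2.18 with an adjusted p of 0.00235. The Th2 cultures exceeded theirs 2.19, 2.03 and 4.66-fold, and the log2 fold change of 1.46 ± 0.40 had an adjusted p of 0.597 in limma, where 0.0114% of all probe sets were called higher. Without experiment 3 it was 1.08 with an adjusted p of 0.43, where 0% of probe sets were called. Among the mixtures, Sod2 in M/M minus Th1 cultures differed by 1 ± 0.40 on the log2 scale (adjusted p = 0.903 by limma) and in M/M minus Th2 cultures by 1.05 ± 0.40 (adjusted p = 0.998). Th1 minus Th2 was 0.06 ± 0.40 (adjusted p = 1). In all 3 of these comparisons 0% of probe sets were called with all arrays. At an unadjusted p under 0.05 in limma, 4 member probe sets were higher in M/M than Th1 (5.33%, against 2.65% of all) and 6 higher in M/M than Th2 (8%, against 3.18%). Between Th1 and Th2 there were 0 in either direction, where 0.606% of all probe sets were higher and 1.25% lower. With arrays centred, M/M against Th1 had 1 higher (1.33%, against 0.881%) and 6 lower (8%, against 3.08%). M/M against Th2 then had 0 in either direction, where 1.57% of all probe sets were higher and 2.84% lower. Leaving out experiment 3 gave 0.44 for M/M minus Th1 with an adjusted p of 1, where 0% of probe sets were called. It gave 1.40 for M/M minus Th2 with an adjusted p of 0.0328, where 0.240% of all probe sets were called higher, and 0.96 for Th1 minus Th2 with an adjusted p of 0.0765, where 0.458% were called higher. Relative to the shift as well, Sod2 was the 1 member called higher without experiment 3 with M/M (0.961% of all probe sets), with Th1 (1.14%) and in M/M over Th2 (0.515%). By the screening criteria of the study's methods (over 2-fold and an unpaired analysis of variance p under 0.2), 3 member probe sets (4%) were higher with M/M, 0 with Th1 and 1 (1.33%) with Th2, against 6.35%, 1.99% and 2.87% of all probe sets. These were Sod2 and both Txnrd1 probe sets with M/M and Sod2 with Th2, and 0 members were lower, against 0.469%, 0.778% and 0.549%.

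The Sod2 promoter is shown because Sod2 is the member that passed the test. The window holds 250 bases before and 50 bases after the annotated start on the minus strand of chr1:50050119-50050418 in RefSeq build GRCr8. Capitals mark the core of the antioxidant response element (TGACNNNGC, read on both strands), a site known to be bound by Nrf2.
Sod2: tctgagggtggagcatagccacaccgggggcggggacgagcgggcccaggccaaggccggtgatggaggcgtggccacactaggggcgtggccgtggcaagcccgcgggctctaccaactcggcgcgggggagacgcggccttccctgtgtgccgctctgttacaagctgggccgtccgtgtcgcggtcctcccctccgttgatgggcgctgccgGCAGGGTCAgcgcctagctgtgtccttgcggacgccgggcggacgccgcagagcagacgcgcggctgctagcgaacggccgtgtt

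The other enzymes that act on superoxide and peroxide did not pass the test. Sod1, the copper-zinc dismutase of the cytosol, had signals of 2085, 1447 and 1742 with M/M, 2032, 1308 and 994 with Th1 and 1631, 1018 and 1126 with Th2 cytokines, against 1955, 878 and 935 in controls. Every M/M and Th1 culture was above its own control, although the groups overlapped, and the log2 fold changes were 0.57 ± 0.19 with M/M (adjusted p = 0.217 by limma) and 0.24 ± 0.19 with Th1 (adjusted p = 0.867). A second Sod1 probe set gave 0.20 and the third 0.32 with M/M, and with Th1 they gave -0.12 and -0.26, so the probe sets disagreed in sign for Th1. Catalase (Cat) had a log2 fold change of 0.29 and the secreted Sod3 one of 0.31 with M/M, both within 1 SE of the shift of all probe sets.

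Txnrd1 encodes the cytosolic thioredoxin reductase, a selenoprotein that keeps thioredoxin reduced. It was the member with the next largest change, and both of its probe sets were higher than control in 9 of 9 treated cultures. The brighter one read 1624, 954 and 2232 in M/M cultures, 1275, 931 and 752 in Th1 cultures and 1171, 529 and 1950 in Th2 cultures, against 941, 318 and 609 in controls. The other read 459, 357 and 492 in M/M, 304, 385 and 178 in Th1 and 316, 252 and 408 in Th2 cultures, against 240, 190 and 97.5 in controls. All M/M cultures lay above all controls on both probe sets, whereas Th1 cultures overlapped with controls on both and Th2 cultures on the brighter one. M/M cytokines gave 1.42 ± 0.33 and 1.39 ± 0.34 on the log2 scale, and neither passed the threshold (adjusted p = 0.1 and 0.113 by limma). The brighter probe set passed it when the array labelled Th1 of experiment 3 (adjusted p = 0.0155), that labelled Th2 of experiment 3 (0.0389), the Th1 array of experiment 2 (0.0369) or all of experiment 1 (0.0466) was left out of the limma fit. Without experiment 3 it was 1.19 (adjusted p = 0.243) and relative to the shift 0.99 (0.221), and over all alternatives the adjusted p ranged from 0.0155 to 1. The brighter probe set stood at 0.76 on the log2 scale with Th1 (adjusted p = 0.857) and at 0.91 with Th2 cytokines (adjusted p = 0.715). Txnrd2, the mitochondrial reductase, had 0.23 with M/M, -0.07 with Th1 and -0.10 with Th2. Its other probe set gave 0.19 with Th1 and 0.15 with Th2, so its probe sets disagreed in sign for these mixtures.

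Sod2, Txnrd1 and, on its brightest probe set only, Hmox2 were above their controls in every treated culture. The Hmox2 window also held the antioxidant response element core and is not printed. A promoter window of Txnrd1 is given next to that of Sod2. It lies on the minus strand of chr7:22755855-22756154 in GRCr8, with the same core in capitals, and the window of a second annotated Txnrd1 start held no match.
Txnrd1: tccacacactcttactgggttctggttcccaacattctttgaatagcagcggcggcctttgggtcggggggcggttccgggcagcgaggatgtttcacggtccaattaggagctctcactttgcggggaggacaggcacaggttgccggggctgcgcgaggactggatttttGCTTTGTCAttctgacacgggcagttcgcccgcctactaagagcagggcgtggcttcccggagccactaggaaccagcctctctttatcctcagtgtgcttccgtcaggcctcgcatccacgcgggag

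Among the peroxiredoxins, the mitochondrial Prdx3 read 957, 561 and 624 with M/M, 743, 586 and 304 with Th1 and 745, 575 and 509 with Th2 cytokines, against 686, 363 and 349 in controls. It was above its own control in 8 of 9 treated cultures, the exception being the culture labelled Th1 of experiment 3, and the groups overlapped. The log2 fold changes were 0.65 ± 0.22 with M/M (adjusted p = 0.219 by limma), 0.20 with Th1 and 0.44 with Th2, and its other probe set gave 0.76, 0.33 and 0.52. Prdx1, a cytosolic peroxidase, read 2089, 1682 and 2175 with M/M, 2156, 1767 and 1453 with Th1 and 2159, 1634 and 1982 with Th2, against 2219, 1340 and 1603 in controls. Prdx2, its relative, read 2046, 1855 and 1604 with M/M, 2215, 2259 and 1118 with Th1 and 2010, 2187 and 1107 with Th2, against 2375, 2639 and 1088 in controls. For Prdx1 and Prdx2 the treated and control ranges overlapped with every mixture, and the values of this pair on the log2 scale ranged from -0.16 to 0.23. The Prdx3 promoter (minus strand of chr1:270000062-270000361, GRCr8) is printed as 1 of 3 member promoters with a match to the NF-kappaB consensus, in capitals. NF-kappaB is the factor that IL-1 and TNF activate. The other matches were in Gpx1 and Gpx4, and the Sod2 window held none. The share of members with a match (8.82%) was near that of all genes (8.16%).
Prdx3: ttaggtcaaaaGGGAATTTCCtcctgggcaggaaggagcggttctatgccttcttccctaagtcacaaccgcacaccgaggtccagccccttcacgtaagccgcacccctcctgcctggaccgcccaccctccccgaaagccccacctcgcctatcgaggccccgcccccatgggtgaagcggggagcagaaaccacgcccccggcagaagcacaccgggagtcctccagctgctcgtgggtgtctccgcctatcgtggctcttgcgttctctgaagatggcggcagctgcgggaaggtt

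**Figure D1:**
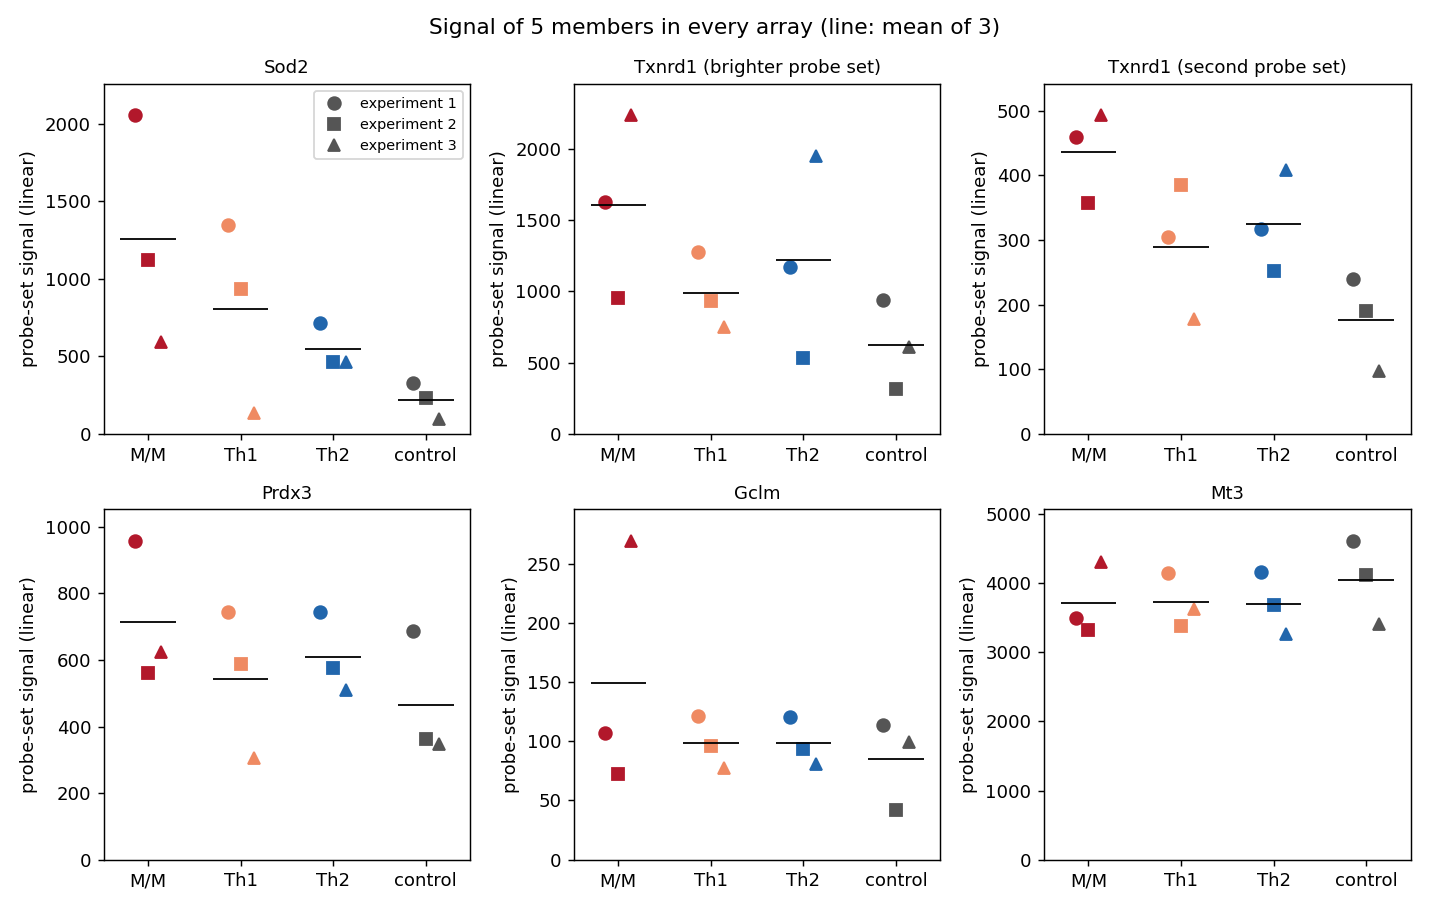
Deposited linear probe-set signal (vertical axis, from 0) of Sod2, Txnrd1 (both probe sets), Prdx3, Gclm and Mt3 in the M/M, Th1, Th2 and control cultures of experiments 1 (circles), 2 (squares) and 3 (triangles), with a line at the mean of 3. Sod2 in M/M cultures lay between 595 and 2053, above the highest control at 326, while Mt3 overlapped between all groups.

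In the thioredoxin system, Txnl1, a thioredoxin-like cytosolic protein, read 518, 401 and 358 with M/M, 370, 378 and 232 with Th1 and 539, 333 and 317 with Th2, against 452, 130 and 265 in controls. The M/M and Th2 cultures were each above their own control, most in experiment 2, whose control was the lowest, and the log2 fold changes were 0.75 ± 0.30 with M/M (adjusted p = 0.267 by limma) and 0.62 ± 0.30 with Th2 (adjusted p = 0.717). Its second probe set was among the dimmest on the array, and no change is read from it. Mitochondrial thioredoxin (Txn2) had 0.01, 0.05 and -0.12 with M/M, Th1 and Th2. The thioredoxin inhibitor Txnip had 2 probe sets that differed in sign, at 0.35 and -0.01 with M/M. Txnl4b, which the rule includes by its symbol although its protein is known from pre-mRNA splicing, had 0.17 with M/M.

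The ratios of Sod2 and of the brighter Txnrd1 probe set, but not those of the other Txnrd1 probe set, stood in each experiment in the order of a list of IL-1 and TNF response genes (8 of 9 measured, such as Ccl2, Icam1 and Nfkbia). The mean log2 ratio of that list was 2.53 with M/M, 2.12 with Th1 and 0.43 with Th2 cytokines in experiment 1, and 3.39, 3.2 and 1.05 in experiment 2. In experiment 3 it was 2.82 in the array labelled M/M, 0.22 in that labelled Th1 and 2.75 in that labelled Th2. Txnrd1 (brighter probe set) exceeded its control 1.73, 1.36 and 1.24-fold with M/M, Th1 and Th2 in experiment 1, 3.00, 2.93 and 1.66-fold in experiment 2, and 3.66, 1.23 and 3.2-fold in experiment 3. Thus M/M was highest in all 3 experiments for the list, Sod2 and this probe set, and Th1 and Th2 changed places in experiment 3. These ratios were not centred. Over all probe sets the median log2 ratio with M/M, Th1 and Th2 was 0.62, -0.03 and 0.18 in experiment 3, which is the same order. In experiments 1 and 2 the order over all probe sets was another one, at -0.00, -0.04 and -0.02, and at 0.39, 0.49 and 0.40. The other Txnrd1 probe set had ratios of 1.91, 1.27 and 1.32 with M/M, Th1 and Th2 in experiment 1, 1.88, 2.02 and 1.32 in experiment 2 and 5.05, 1.83 and 4.18 in experiment 3, so Th2 stood above Th1 in experiment 1 and Th1 above M/M in experiment 2. The brightest Sod1 and Gss probe sets stood in the same order as the list in each experiment, so this order was not particular to Sod2 and Txnrd1. Its share among all probe sets was not counted. The 3 ratios of an experiment share 1 control array, and the order is given as a description.

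**Figure D2:**
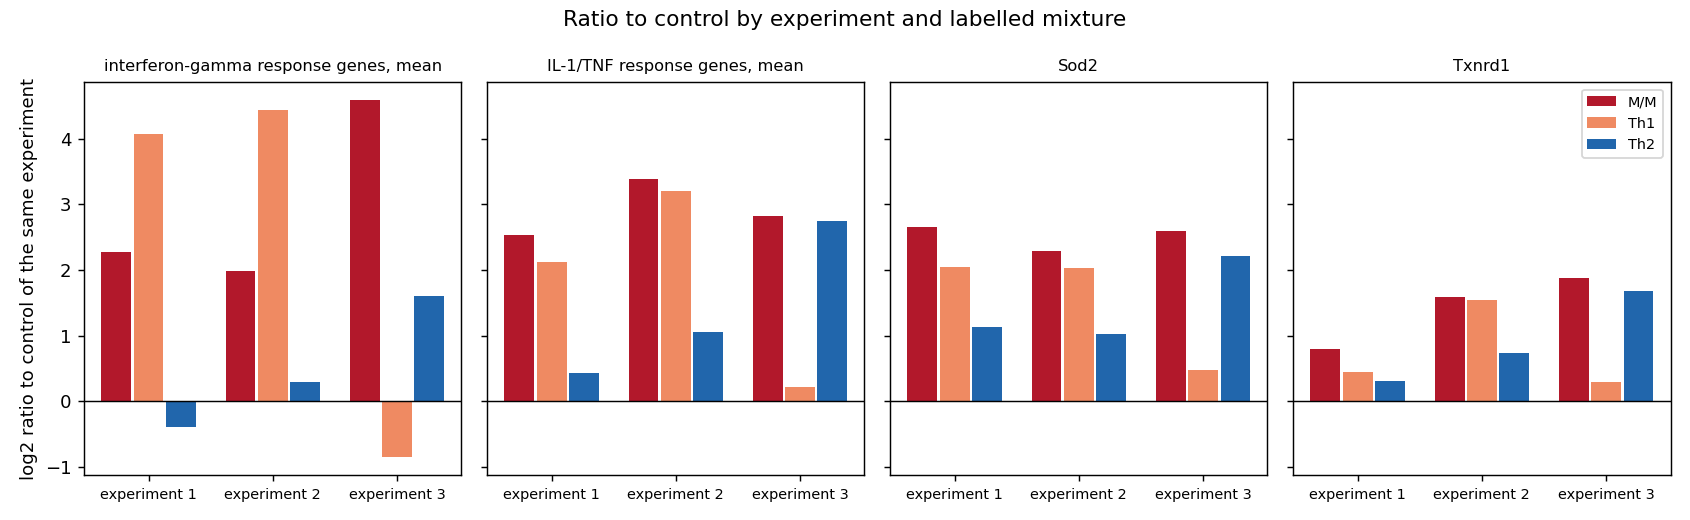
Log2 ratio of each labelled mixture (M/M, Th1, Th2 bars) to the control of the same experiment, for the mean of 9 interferon-γ response genes, the mean of 8 IL-1 and TNF response genes, Sod2 and Txnrd1 (brighter probe set). In experiment 3 the array labelled Th1 stood lowest in all 4 panels, at -0.85 for the interferon-γ list.

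Glutathione synthesis enzymes did not pass the test. Glutathione synthetase (Gss), the second enzyme of the route, read 228, 238 and 321 with M/M, 206, 204 and 171 with Th1 and 158, 178 and 221 with Th2, against 204, 152 and 153 in controls. Its M/M signals did not overlap with control, and the log2 fold change was 0.63 ± 0.24 (adjusted p = 0.256 by limma), falling to 0.20 relative to the shift of the arrays. Gclc, the catalytic subunit of glutamate-cysteine ligase and the rate-limiting step, was the only gene below its own control in 3 of 3 M/M cultures. It read 111, 99.2 and 55.2 with M/M, 115, 165 and 121 with Th1 and 192, 140 and 53.0 with Th2, against 200.1, 110 and 70.5 in controls. The M/M and control ranges overlapped, and its log2 fold change was -0.45 ± 0.33 (adjusted p = 0.514) and -0.88 relative to the shift. Gclm, the modifier subunit of the same enzyme, read 107, 72.4 and 269 with M/M, 122, 95.8 and 77.6 with Th1 and 120, 93.8 and 80.7 with Th2, against 114, 41.7 and 99.8 in controls. Its ratio to control with M/M was 0.942, 1.73 and 2.70 in the 3 experiments, and its 3 probe sets stood at 0.71, 0.78 and 1.36 on the log2 scale (adjusted p from 0.278 to 0.42). Glutathione reductase (Gsr) had 0.04 on its brightest probe set with M/M, and 0.92 and 1.05 on the dimmer ones, none of them past the threshold.

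Glutathione peroxidase 1 (Gpx1), the main cytosolic form, had no single direction across the experiments. Its brightest probe set read 2682, 2877 and 2692 with M/M, 2531, 2774 and 1718 with Th1 and 2980, 2892 and 1737 with Th2, against 4765, 3323 and 1562 in controls. All treated cultures of experiments 1 and 2 were below their control, and all those of experiment 3 were above it. The log2 fold changes were -0.08 with M/M, -0.35 with Th1 and -0.24 with Th2, with adjusted p of 0.826 or more in limma. Without experiment 3 and relative to the shift of the arrays, the log2 fold change was -0.84 with M/M (adjusted p = 0.0377) and -0.89 with Th1 (adjusted p = 0.0257), where 0.412% and 0.229% of all probe sets were called lower. A second bright Gpx1 probe set read 2528, 2840 and 2055 with M/M, 2060, 2537 and 1086 with Th1 and 2213, 2065 and 1272 with Th2, against 2678, 2136 and 1207 in controls. On that probe set the same 2 values were -0.15 and -0.37, with adjusted p of 0.605 and 0.391, so Gpx1 is given with no direction. The third probe set was in the dimmest 25% of the array, and no change is read from it. Gpx4, which reduces lipid peroxides in membranes, read 972, 1100 and 903 with M/M, 957, 1202 and 685 with Th1 and 1214, 1161 and 820 with Th2, against 1120, 975 and 461 in controls. Each Th2 culture was above its own control, with a log2 fold change of 0.40 ± 0.21 (adjusted p = 0.717 by limma), which turned to -0.08 without experiment 3 and relative to the shift. Gpx5 and Gpx6, known from epididymis and olfactory tissue, were the 2 members in the dimmest 25% of probe sets, and no change is read from them.

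Glutathione S-transferases were the largest group, with 12 genes and 25 probe sets, and none passed the test with all arrays. Their median log2 fold change was 0.13 with M/M, 0.04 with Th1 and -0.04 with Th2, against 0.33, 0.14 and 0.19 over all probe sets. Relative to the shift of the arrays the medians were -0.30, -0.12 and -0.25, against -0.10, -0.02 and -0.03 over all probe sets. Gstp1, one of the brightest members, read 3752, 4009 and 2682 with M/M, 3683, 4993 and 2177 with Th1 and 3249, 4613 and 1898 with Th2, against 4119, 4999 and 1898 in controls. Its groups overlapped, although no Th2 culture was above its own control, and the log2 fold changes of 0.02, 0.01 and -0.15 were within 1 SE of 0. Gstm1 had 1 of 3 probe sets called lower with M/M only without experiment 3 and relative to the shift, at -0.77 with an adjusted p of 0.0482 by limma, while the other 2 gave -0.60 and -0.69 with adjusted p of 0.0886 and 0.0953. Gsta4, which conjugates the lipid peroxidation product hydroxynonenal, had 0.76 ± 0.39 with M/M, with ratios of 0.803, 3.86 and 1.58. The highest ratio was in experiment 2, whose control read 45.5, against 476 and 188 in the other controls. Members of this family are similar in sequence, so probe sets of Gsta1, which can hybridise to related transcripts, do not tell them apart with certainty.

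Mt3, the brain metallothionein, was among the brightest members and differed little between cultures. It read 3498, 3320 and 4311 with M/M, 4144, 3385 and 3632 with Th1 and 4154, 3678 and 3265 with Th2, against 4605, 4112 and 3410 in controls. All groups overlapped, although each Th2 culture was below its own control. The log2 fold changes were -0.12 ± 0.17 with M/M, -0.11 ± 0.17 with Th1 and -0.12 ± 0.17 with Th2 (adjusted p from 0.735 to 0.924 by limma), and -0.55, -0.27 and -0.34 relative to the shift of the arrays. Nqo1, the quinone reductase that is known as a target of Nrf2, read 849, 648 and 742 with M/M, 772, 673 and 340 with Th1 and 568, 554 and 615 with Th2, against 776, 554 and 927 in controls. Its log2 fold changes were 0.01, -0.39 and -0.35, with adjusted p of 0.788 or more. Hmox2, the constitutive heme oxygenase, read 217, 243 and 110.5 with M/M, 217, 270.2 and 85.1 with Th1 and 209, 290.5 and 77.3 with Th2, against 207, 219 and 75.8 in controls. It was above its own control in 9 of 9 treated cultures by at most 1.46-fold, with log2 fold changes of 0.25, 0.18 and 0.15 and an SE of 0.22. Its second probe set gave 0.26, 0.07 and -0.40.

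Over the 40 genes, each by its brightest probe set, the median log2 fold change was 0.24 with M/M, 0.13 with Th1 and 0.06 with Th2, against 0.33, 0.14 and 0.19 over all probe sets. With M/M, 8 genes (20.0%) were above control in 3 of 3 experiments and 1 (2.50%) below, against 32.0% and 3.66% of all probe sets. With Th1 these were 5 genes (12.5%) and 0, against 14% and 5.72%, and with Th2 they were 6 (15%) and 2 (5.00%), against 25% and 6.46%. Signals that did not overlap between treated and control cultures were found for 5 member probe sets (6.67%) with M/M and 2 (2.67%) with Th2, all higher, and for 0 with Th1, against 7.48%, 2.77% and 1.54% of all probe sets. No member was lower without overlap, against 0.503% with M/M, 0.721% with Th1 and 0.606% with Th2. These shares were near or below those of all probe sets. At an unadjusted p under 0.05 in limma, 12 member probe sets were higher with M/M (16%, against 15.4% of all), 5 with Th1 (6.67%, against 4.75%) and 4 with Th2 (5.33%, against 6.06%), and 0 were lower with any mixture, against 0.584%, 0.812% and 0.686% of all. With arrays centred the balance turned, with 15 lower with M/M (20%, against 8.02% of all), 4 with Th1 (5.33%, against 3.17%) and 9 with Th2 (12%, against 3.51%). Those higher then numbered 3 with M/M (4%, against 5.33%), 2 with Th1 (2.67%, against 3.54%) and 3 with Th2 (4%, against 4.29%).

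Relative to the shift of the arrays, more members were below control than above it with M/M and Th2. The log2 fold change was above 0 for 30% of the genes with M/M and 32.5% with Th2, against 41% and 47.4% of all probe sets. With Th1 the share was 47.5%, against 47.4%. With M/M, 13 genes (32.5%) were below control in 3 of 3 experiments, against 23.3% of all probe sets, and 6 (15%) above it, against 13.5%. With Th2, 14 genes (35.0%) were below, against 15.7%, and 4 (10.0%) above, against 14.9%, whereas with Th1 3 genes (7.5%) were below, against 10.9%, and 4 (10.0%) above, against 11.2%. Without experiment 3, 24 genes (60.0%) were below control in both experiments with M/M, 19 (47.5%) with Th1 and 25 (62.5%) with Th2, against 39.1%, 29.1% and 33.3% of all probe sets. Counted over member probe sets, these were 43 of 75 (57.3%), 37 (49.3%) and 44 (58.7%). The genes below control with M/M included Gclc, Gstm1, Gstp1, Prdx2, Prdx6, Txn2, Mt3 and, on its brightest probe set only, Gsr. The dimmer Gsr probe sets were above control with M/M in experiments 1 and 2. As deposited, one read 67.6 and 58.6 against 56.9 and 24.4, and the other 42.9 and 54.8 against 35.6 and 25.8. Above control in both experiments were 7 genes (17.5%) with M/M, 7 (17.5%) with Th1 and 6 (15%) with Th2, against 22.4%, 21.2% and 25.1%, and Prdx3, Sod2 and Txnrd1 were among those of each mixture. The 3 comparisons share their controls, and 35 of the 40 genes were brighter than the median probe set. Among all probe sets that were, the median was -0.11 with M/M, -0.01 with Th1 and -0.05 with Th2 relative to the shift. As deposited, without centring, the counts below control in both experiments were 10, 4 and 7 genes, against 17.6%, 11.7% and 16.2% of all probe sets.

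**Figure D3:**
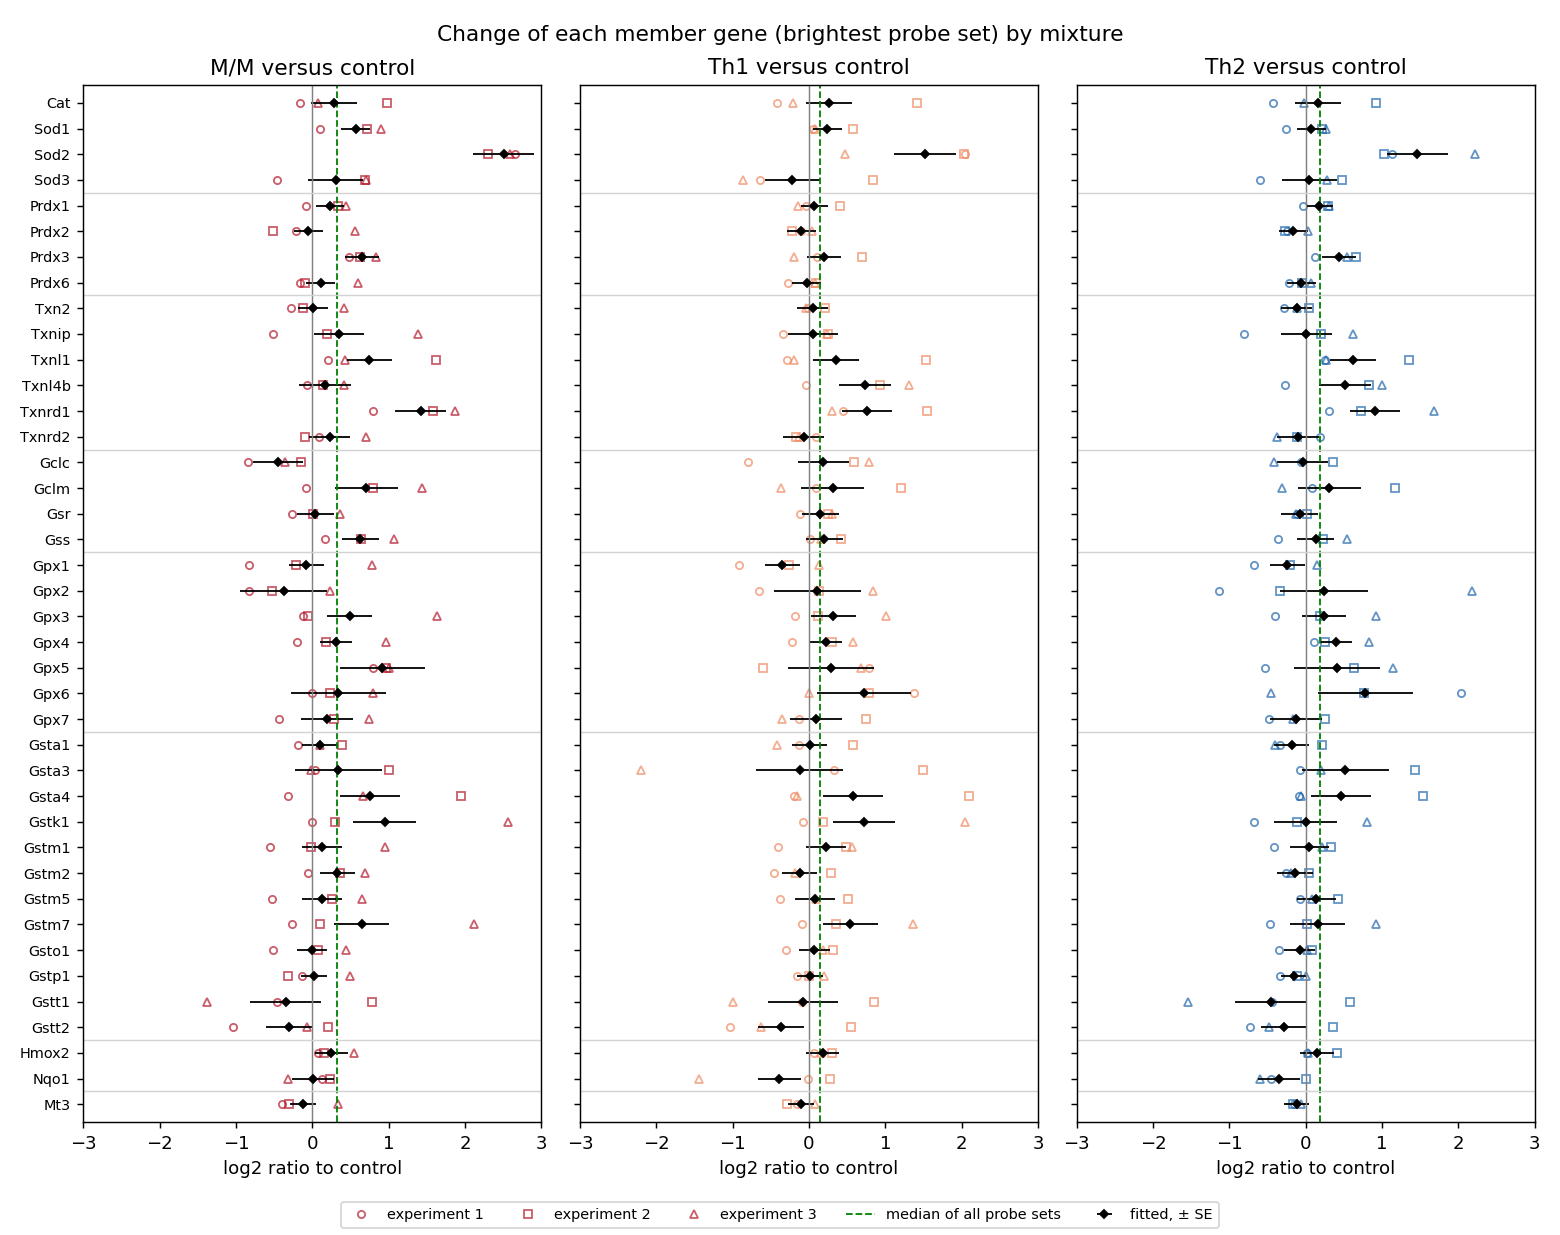
Log2 ratio to control of each of the 40 genes (rows, grouped by role, brightest probe set) with M/M, Th1 and Th2 cytokines (panels), for experiments 1, 2 and 3 (open symbols) and the limma value with its SE (diamonds). The dashed line is the median of all probe sets, at 0.33, 0.14 and 0.19, and Sod2 at 2.51 with M/M stood farthest from it.

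Most members ranged widely among the 3 control cultures. The range over the controls, in log2 units, had a median of 1.52 over the 40 genes, while the largest fold change of a gene with any mixture had a median of 0.37. For 38 of 40 genes the range over the controls was the larger value, against 91.5% of all probe sets, and the exceptions were Gss and Sod2. A range of 3 cultures and a mean of 3 ratios are different measures, and the share for the members is near that of all probe sets. Gstk1, a transferase of mitochondria and peroxisomes, read 215, 186 and 14.8 on its brightest probe set in the controls of experiments 1, 2 and 3. This was a 14.5-fold range, whereas its other probe set read 110, 42.3 and 50.5, a 2.61-fold range. In the same cultures Gsta4 had a 10.5-fold range and Gstm1 a 4.98-fold one, at 1330, 267 and 510. With arrays centred, the range over the controls was larger for 35 of 40 genes, against 88.2% of all probe sets, and the exceptions were Gclc, Gsr, Gsto1, Prdx6 and Sod2. Summed marker signals also ranged over the control arrays, from 3687 to 13592 for oligodendrocytes, 7443 to 13041 for astrocytes, 3206 to 7988 for microglia and 714 to 4347 for fibroblasts, and their part in the spread of the members was not tested.

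**Figure D4:**
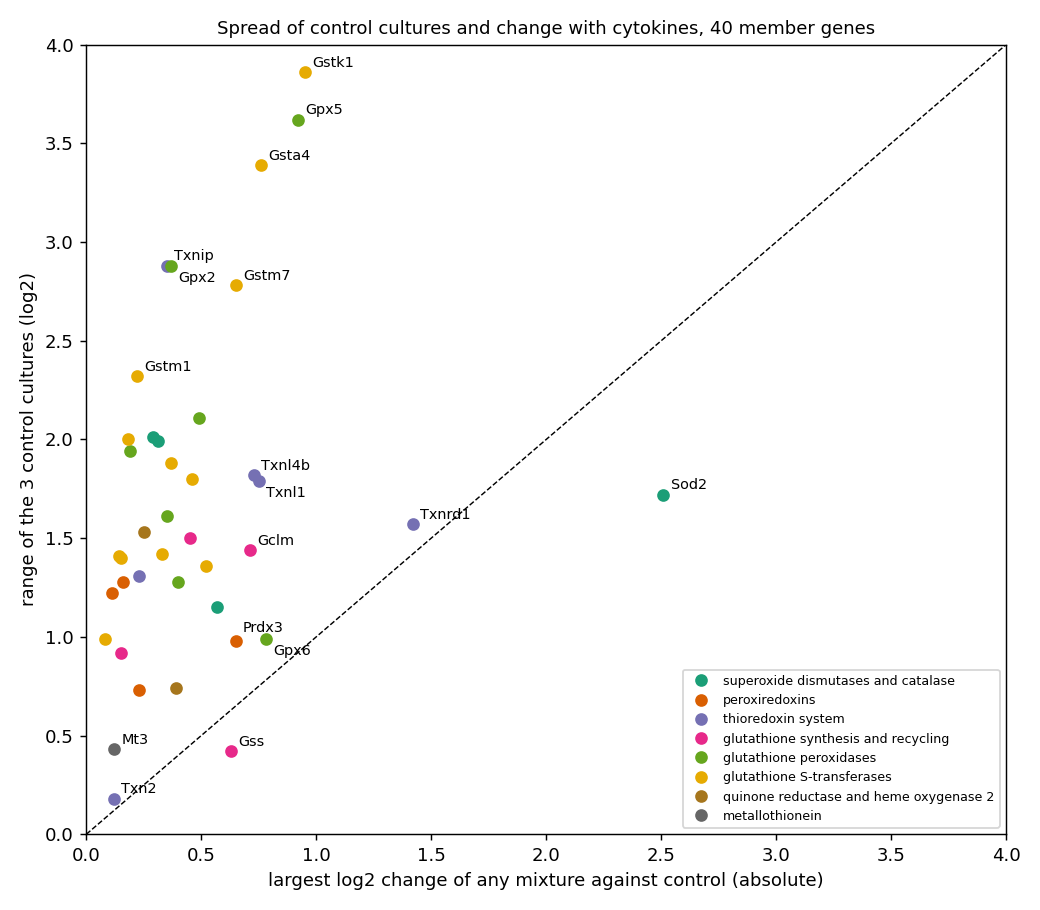
Range of the 3 control cultures (vertical axis, log2 units) against the largest absolute log2 fold change of any mixture (horizontal axis) for the 40 genes, coloured by role, with a dashed line where they are equal. Sod2 and Gss lie below the line. On their brightest probe sets, Gstk1 and Gsta4 were the transferases with the widest control ranges, at 14.5 and 10.5-fold.

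Genes that supply or surround these pathways were counted from lists. None passed the test with any mixture among 12 measured genes of glutathione transport and turnover, 18 of NADPH supply and the Nrf2 response, 7 selenoproteins and other redox proteins, 11 sources of oxidants and 3 zinc transporters. At an unadjusted p under 0.05 in limma the 5 lists held 1, 2, 1, 3 and 1 genes with M/M, where 15.4% of all probe sets were higher and 0.584% lower at that threshold, so nothing particular to the lists is read from these counts. The Nrf2 gene itself, Nfe2l2, whose protein binds the antioxidant response element, had ratios to control of 2.26, 6.29 and 4.84 with M/M, 1.96, 6.77 and 1.01 with Th1 and 1.27, 2.72 and 3.10 with Th2. Its log2 fold change with M/M was 2.03 ± 0.46 (adjusted p = 0.0941 by limma), above its control in 3 of 3 experiments and short of the threshold. The list of 18 genes that holds Nfe2l2 had a median of 0.15 with M/M, against 0.33 over all probe sets. Relative to the shift of the arrays the list median was -0.28, against -0.10, and 2 of the 18 genes were above 0. Hmox1, the inducible heme oxygenase, had 0.32 ± 0.19 with M/M (adjusted p = 0.427), close to the shift of 0.33 over all probe sets.

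Of the 40 genes, 34 had a promoter window in the RefSeq table. The antioxidant response element core was found in 12 of them (35.3%), among which were Sod2, Txnrd1, Gclm, Prdx1 and Gstp1, against 13.1% of all 27457 genes with a window. The metal response element core, bound by the zinc sensor that drives metallothioneins, was searched on both strands in 2 forms that differ in 1 base, TGCACNC and TGCGCNC, and was found in 3 (8.82%) and 6 (17.6%), against 13.2% and 15.7%, with Mt3 in both. The NF-kappaB consensus was found in 3 (8.82%), against 8.16%. A match in these letters is a description and not a bound site.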

How the data were processed

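Probe-set intensity values of 12 RG-U34A arrays were calculated by the authors with dChip v1.2 before they were deposited, on a linear scale. The settings and any normalization between arrays are not given in the sources used here. The table held 8799 probe sets, of which 59 control probe sets were left out. Arrays were grouped by the mixture and paired by the experiment code in their labels, and arrays of 1 experiment deviated together (18 correlations from 0.439 to 0.708). Cultures of different experiments were separate. Values below 0.1 were set to 0.1 before log2. Groups were compared by a linear model in limma 3.58.1 under R 4.3.3, in which a term for experiment served as the replicate block and the prior variance followed the signal, which left 6 residual degrees of freedom beside 6.94 from the prior. The Benjamini-Hochberg adjustment ran over 8740 probe sets, with a threshold of 0.05. The number of arrays limits the precision. Gene names came from the annotation of the array and promoters from RefSeq (GRCr8). A gene was summarised by its brightest probe set.

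Members, lists and tests were chosen with earlier results of these data known. Genes named with values were Sod2, members past the threshold, the 5 largest changes each way in 1 direction in 3 of 3 experiments among those brighter than the median probe set, the 5 brightest, and those with disagreeing probe sets, most of which are given by count or fold change. Gclm, Nqo1, Gsta4 and some other members, and Nfe2l2 and Hmox1 from the lists, were named outside this rule. Alternatives were centring, quantile normalization, an offset of 16, leaving out the dimmest 25%, no variance trend, other blocks, each array or experiment left out, and the screening criteria of the methods (over 2-fold and an unpaired analysis of variance p under 0.2). Centring without experiment 3 was added after the data were seen.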

Additional observations from a re-analysis of the deposited data

How the results depend on the processing

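The Sod2 log2 fold change with M/M was above 0 in all 23 alternatives. It fell short of the threshold when arrays were centred (2.09) or quantile normalized (2.21), without the variance trend (2.51, adjusted p = 0.266), and without the replicate block (2.51, adjusted p = 1), and it ranged from 2.43 to 2.64 when an array or experiment was left out. The count of members called with M/M was 0 in these 4 settings, including the fit without the replicate block, 3 by the screening criteria of the methods (Sod2 and both Txnrd1 probe sets), 3 with centring and without experiment 3, and 0 to 3 when an array or experiment was left out (3, Sod2 and both Txnrd1 probe sets, without the array labelled Th1 of experiment 3). With Th1 that count was 0 to 1 when an array or experiment was left out and 2 with centring and without experiment 3, with Th2 it was 1 by the screening criteria, and for M/M against Th2 it was 0 to 1 when an array or experiment was left out and 1 with centring and without experiment 3. The member median with M/M was -0.19 with centring. With centring and without experiment 3 the medians were -0.25 with M/M, -0.21 with Th1 and -0.31 with Th2. Leaving out an array or experiment moved the median from 0.02 to 0.48 with M/M, from -0.03 to 0.30 with Th1 and from -0.08 to 0.33 with Th2, the last without the control of experiment 1. Of the 17 other gene and comparison pairs, 3 changed sign, all with centring and without experiment 3, namely Gss with Th1 (-0.09), Hmox2 with Th1 (-0.12) and Gpx4 with Th2 (-0.08). The cause was not tested. A random block in place of the fixed one changed no call.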
